A study of Mus musculus with 37 samples.

Results

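Scar matrix fibroblasts were a set of nonmyocyte barcodes of the injured heart at day 7. In them, genes of a collagen-rich, cartilage- and tendon-like matrix outweighed a set of genes of interstitial fibroblasts. A barcode was a member when Col1a1, Col1a2, Col3a1 and Dcn together took at least 0.5% of its counts, when the 3 C1q genes of macrophages (C1qa, C1qb and C1qc) took under 0.3%, when 5 interferon-induced genes (Ifit1, Ifit3, Isg15, Rsad2 and Iigp1) summed to under 5 counts, and when the summed counts of 6 rule genes (Thbs4, Comp, Cilp, Col11a1, Fmod and C1qtnf3) exceeded those of 7 opposing genes (Clec3b, Dpep1, Htra3, Fbln1, Adamtsl2, Tnxb and C3). The rule was met by 2642 of 12807 barcodes, 1694 of 7460 in the ENPP1CKO library and 948 of 5347 in the control library. Barcodes that met the first 3 criteria and had the opposing sum above the rule sum are called Clec3b-type fibroblasts, and they numbered 1742 and 802.

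The study asked how loss of ENPP1, the ectonucleotidase that splits extracellular ATP, altered the cells of the healing heart. The nonmyocyte population was harvested from C57BL/6 mice 7 days after myocardial infarction. ENPP1CKO animals carried the Col1a2CreERT driver, a tamoxifen-inducible recombinase active in cells that use a Col1a2 regulatory sequence, with both ENPP1 alleles floxed, and were given tamoxifen from before injury to day 7. Control animals were littermates, labelled wild type. Whether the control animals carried the driver or received tamoxifen, the age of the animals and the number of hearts behind each library were not given in the sources used here. There was 1 library per genotype, so no difference between genotypes could be tested and no p-value was computed. Intervals are exact 95% intervals that cover counting error only, and they do not include the spread between animals.

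Fibroblasts build the scar that replaces muscle lost in an infarct. Early after injury many become myofibroblasts, which carry smooth muscle actin (Acta2) and pull the wound together, and later many turn to a matrix-producing state with genes otherwise known from cartilage and tendon. The rule genes belong to that program. Thrombospondin 4 (Thbs4) and cartilage oligomeric matrix protein (Comp) are pentameric proteins that bind collagen, cartilage intermediate layer protein (Cilp) is a secreted antagonist of TGF-β and IGF1, Col11a1 encodes a chain of a minor fibrillar collagen that nucleates fibrils, fibromodulin (Fmod) is a leucine-rich proteoglycan that controls fibril thickness, and C1qtnf3 encodes a secreted protein of the C1q and TNF family.

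Members held a median of 4620.5 counts (unique molecules) and 1766.5 genes in the ENPP1CKO library and of 5774 counts and 2048.5 genes in the control library, 8337947 and 5821066 counts in all. Levels are counts scaled to 1000000 (CPM) within the summed counts of a library's members, and a log2 ratio is the log2 of ENPP1CKO over control CPM. The libraries shared 68 barcode sequences, 4 of them among members. A gene is called past 2-fold when its ratio was at least 2-fold and its counting interval excluded no difference. The comparison covered the 10164 genes that had 50 or more counts over the members of both libraries. Of these, 206 were past 2-fold higher in the ENPP1CKO library (2.03%) and 208 past 2-fold lower (2.05%), 4.07% in all, around a median log2 ratio of 0.02. Without members that held a Cilp count, a setting added after values had been seen, 44 of 7092 genes were past 2-fold higher and 158 past 2-fold lower. Without regard to size, 52.0% of the 10164 genes were higher and 48.0% lower, and the counts of each list below stand beside these shares.

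Members made up 22.7% of ENPP1CKO barcodes (interval 21.8 to 23.7) and 17.7% of control barcodes (16.7 to 18.8). Of the barcodes that met the first 3 criteria they were 46.9% (45.2 to 48.5) and 51.4% (49.1 to 53.7), so the order of the libraries turned with the denominator. These shares are a description, because the genes that set membership themselves differed between the libraries. The median member had 13 rule counts against 2 opposing counts in the ENPP1CKO library and 14 against 2 in the control library. Just inside the threshold lay 145 and 75 members with a margin of 1 count, and just outside it 177 and 95 barcodes with equal sums, 58 and 39 of which had no count of any of the 13 genes. Without Cilp in the rule the latter shares were 37.1% and 49.3%. Without Comp they were 42.1% and 38.9%, so the order of the libraries also turned with that gene.

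The rule genes were not shared out alike between the libraries. Cilp stood at 1267 CPM in ENPP1CKO members and 227 CPM in control members, a log2 ratio of 2.48 (interval 2.40 to 2.57). Thbs4 stood at 481 against 172 CPM, a log2 ratio of 1.48 (1.38 to 1.58). Both were higher in the ENPP1CKO library. Col11a1 was lower there at 216 against 498 CPM (log2 ratio -1.21, -1.29 to -1.12), or -0.54 without members that held a Cilp count, and Comp was lower at 652 against 982 CPM (-0.59, -0.64 to -0.54), or -0.17 without Cilp-led members and -0.14 without members that held a Cilp count. The last pair stood closer together, with C1qtnf3 at 721 against 845 CPM and Fmod at 383 against 392 CPM, where the interval of the log2 ratio (-0.11 to 0.04) included 0. Without Cilp-led members that of Fmod was 0.22. These values follow in part from the rule and are given without a test. In Clec3b-type fibroblasts the log2 ratio was 1.45 for Cilp, 1.32 for Thbs4 and -0.52 for Comp, and 0.17 for Col11a1 at 27.3 and 24.3 CPM.

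**Figure D1:**
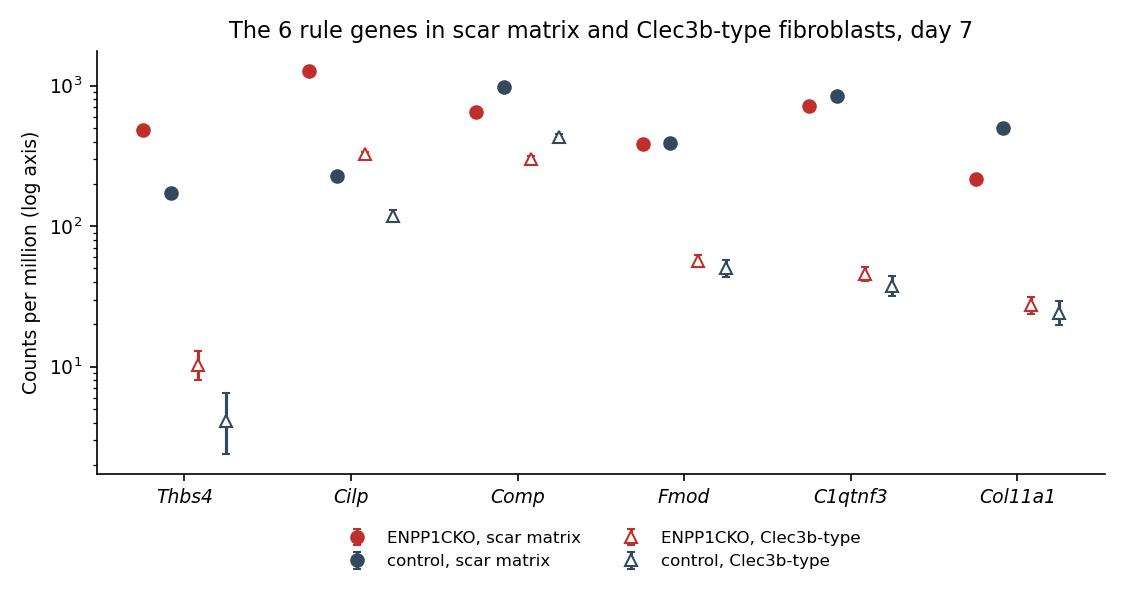
Levels of the 6 rule genes (CPM, log axis) in scar matrix fibroblasts (filled circles) and Clec3b-type fibroblasts (open triangles) of the ENPP1CKO (red) and control (dark blue) libraries, with exact 95% counting intervals that are hidden by the filled circles. Cilp is at 1267 CPM in ENPP1CKO members against 227 in control members, and Col11a1 is at 216 against 498.

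Counted cell by cell, the gene that led the rule sum differed as well. The split by leading gene was chosen after values had been seen. Cilp had the most counts of the 6 rule genes in 43.1% of ENPP1CKO members (730 cells) and in 3.90% of control members (37 cells). Comp led 16.4% and 42.1%, C1qtnf3 15.1% and 23.8%, and Col11a1 4.19% and 14.2%. Thbs4 led 7.26% and 3.48% and Fmod 4.07% and 3.80%. The set in the ENPP1CKO library was thus led by Cilp and the set in the control library by Comp, C1qtnf3 and Col11a1, and every comparison of members below compares sets of that unlike make-up. Most members held several rule genes, and 10.1% and 8.76% had counts of 1 rule gene alone.

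**Figure D2:**
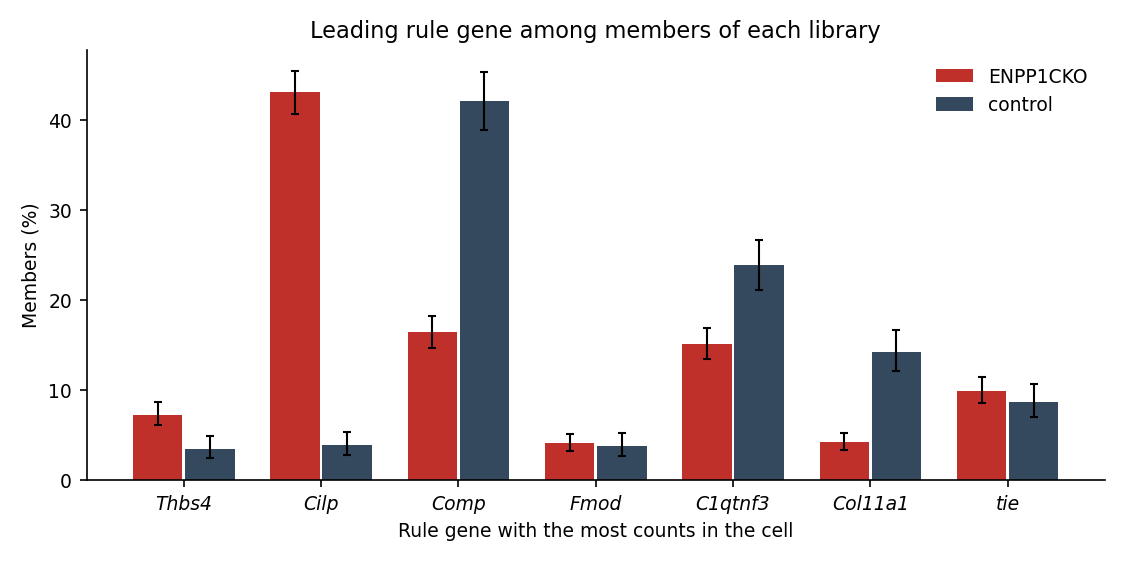
Share of members (%, vertical axis) in which each rule gene had the most counts, for the ENPP1CKO (red) and control (dark blue) libraries, with exact binomial 95% intervals; tie marks members with equal highest counts. Cilp leads 43.1% of ENPP1CKO and 3.90% of control members, and Comp 16.4% and 42.1%.

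Markers of the infarct scar that the rule did not use were examined next. Periostin (Postn), a matricellular protein of activated fibroblasts, stood at 6243 against 5648 CPM in members, above its 3514 and 2767 CPM in Clec3b-type fibroblasts. Cthrc1, a secreted protein of collagen-producing scar fibroblasts, stood at 3114 and 4351 CPM against 1418 and 1763. Other markers of the list lay the other way. Mfap4 stood at 2772 and 2944 CPM in members and at 3866 and 3259 CPM in Clec3b-type fibroblasts. Sfrp2 stood at 2204 and 3798 CPM in members and at 3818 and 3714 CPM in Clec3b-type fibroblasts, lower in members of the ENPP1CKO library. Pdgfra, a receptor of resting fibroblasts, was also lower in members, at 71.2 and 48.3 CPM against 143 and 127. Of 15 markers of scar fibroblasts 6 are rule genes. Of the other 9, 5 were at least 2-fold above the Clec3b-type level in both libraries and none was 2-fold below, which is a description, since the same cells chose the sets. Of 9 epicardial markers, Tbx18, which pericytes and some fibroblasts also express, stood at 30.2 against 24.7 CPM in members and 20.8 and 16.8 CPM in Clec3b-type fibroblasts. Wt1 had 21 and 13 counts in all members, and each of the other 7, Krt18 at no count among them, had 3 counts or fewer in either library. Clec3b-type fibroblasts held more of these, with Wt1 at 44 and 247 counts, Krt19 at 80 and 83 and Msln at 107 and 18.

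Against Clec3b-type fibroblasts, 137 of 11353 genes (1.21%) were at least 2-fold higher and 253 (2.23%) at least 2-fold lower in both libraries. This is a description, since the same cells and counts chose the sets. Beside the rule genes, the higher side held genes of tendon and cartilage. The log2 ratio of member over Clec3b-type levels, in the ENPP1CKO and the control library, was 4.30 and 3.61 for scleraxis (Scx), the transcription factor of tendon progenitors, and 4.84 and 3.34 for tenomodulin (Tnmd), a membrane protein of mature tendon. It was 4.60 and 4.05 for Col2a1, the collagen of hyaline cartilage, 3.52 and 4.66 for aggrecan (Acan), its large proteoglycan, and 4.11 and 4.22 for Cilp2, the paralog of Cilp. Tenascin N (Tnn) followed at 3.04 and 3.53. Of the 23 genes on the cartilage and tendon list 7 were at least 2-fold higher in both libraries and none was 2-fold lower.

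Genes outside that list were also higher, some by ratios of the same size and others by smaller ones. The imprinted gene Mest had log2 ratios of 3.58 and 3.87 over Clec3b-type fibroblasts, the growth factor binding protein Igfbp2 3.52 and 3.56, the retinoic acid hydroxylase Cyp26a1 3.64 and 2.01, the water channel Aqp2 2.15 and 2.53, and the cell cycle inhibitor Cdkn2a 2.04 and 1.99. Lowest were the acute phase gene Saa3 at -5.46 and -5.19, Dmkn at -5.01 and -5.82, and the neutrophil chemokine Cxcl5 at -4.02 and -4.30, followed by Nkain4, Pvalb, Lgi2, Steap4 and Lgals7. Of the resting fibroblast list 13 of 22 genes were at least 2-fold lower in members of both libraries, among them Apoe (-2.21 and -1.49), which carries lipid, and Pi16 (-1.11 and -1.28), a marker of adventitial fibroblasts. Of the inflammatory list 12 of 32 were. Of the 9 epicardial markers 7 were at least 2-fold lower in both libraries. Lrrn4 was lower too, at 2 against 10 counts in the ENPP1CKO and 0 against 26 in the control library, but fell short of the minimum count, and Tbx18 was higher. The part of epicardial RNA in the lower genes was not tested.

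Enpp1 itself was lower in the ENPP1CKO members, at 36.0 against 162 CPM, a log2 ratio of -2.17 (-2.37 to -1.98). With each cell thinned to 2000 counts, which left 1528 and 859 members deep enough, 6.28% of ENPP1CKO members and 23.5% of control members had an Enpp1 count (13.3% and 50.8% without thinning), against 1.98% and 2.60% of macrophage barcodes, which had median depths of 3313 and 3483 counts. The position of the counted tags relative to the floxed exon was not given, so remaining counts do not measure intact transcripts. In Clec3b-type fibroblasts the log2 ratio was -1.88. Members had more Enpp1 than Clec3b-type fibroblasts in both libraries, by log2 0.83 and 1.13. The library labels and the level of the targeted gene therefore pointed the same way.

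The genes of the contractile apparatus were mostly lower in ENPP1CKO members. Of 22 such genes 20 had a lower level in the ENPP1CKO library, 6 of them past 2-fold, and none was past 2-fold higher, with a median log2 ratio of -0.41 beside 0.02 over all genes tested. Acta2 stood at 386 CPM in ENPP1CKO members and 1532 CPM in control members, a log2 ratio of -1.99 (-2.05 to -1.93). That ratio was smaller in size without Cilp-led members and without members that held a Cilp count, as given with the leading genes below. Without members that held a Cilp count the list median was -0.28, with 19 of 22 genes lower. In cells thinned to 2000 counts Acta2 was seen in 22.2% and 55.1% of members (34.2% and 68.7% unthinned), against 2.40% and 5.71% of macrophage barcodes.

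The widest ratios belonged to markers of mature smooth muscle. The γ-actin of smooth muscle, Actg2, stood at 6.24 against 74.7 CPM (-3.58, -4.03 to -3.17), and calponin 1 (Cnn1), which binds actin and slows its motor, at 4.92 against 39.5 CPM (-3.01, -3.52 to -2.52). The regulatory light chain Myl9 stood at 130.4 against 359 CPM (-1.46), leiomodin 1 (Lmod1) at 3.00 against 8.59 CPM (-1.52) and tropomyosin 2 (Tpm2) at 234 against 479 CPM (-1.03). Tagln, an actin-bundling protein, stood at 318 against 592 CPM (-0.90) and Cnn2 at 122 against 196 CPM (-0.69), short of 2-fold. Caldesmon (Cald1) was level, at 811 against 803 CPM with an interval of -0.04 to 0.07, and Fhl2, a cofactor of serum response factor, was higher in the ENPP1CKO library at 118 against 81.6 CPM (0.54). Clec3b-type fibroblasts had log2 ratios of -1.36 for Acta2, -0.56 for Tagln, -1.86 for Actg2 and -0.33 for Myl9, and a list median of -0.47.

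Smooth muscle cells and pericytes express the same apparatus, and their markers are given beside it. The 10 markers of pericytes and smooth muscle summed to 79.6 CPM in ENPP1CKO members against 105 CPM in control members, and the 5 with enough counts were all lower in the ENPP1CKO library, Cox4i2 past 2-fold (14.6 against 29.9 CPM, log2 ratio -1.03). With thinned cells 2 of the 5 were lower and without members that held a Cilp count 1 of the 5 was. Myh11, the myosin heavy chain that defines smooth muscle, had 11 and 7 counts in all members, and Rgs5, the leading pericyte gene, stood at 32.6 against 35.0 CPM with an interval of -0.37 to 0.17 that included 0. A filter left out members of poor quality or with 3 or more counts of endothelial, lymphocyte, macrophage or pericyte markers. With it the log2 ratio of Acta2 was -2.02. Its pericyte markers were Rgs5, Kcnj8 and Abcc9, and it used no marker of smooth muscle such as Myh11. The filter therefore could not single out smooth muscle cells.

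The bases upstream of 4 contractile genes and of the pair of rule genes higher in ENPP1CKO members are shown because they hold, or lack, a pair of motifs known from muscle and wound genes: GGAATG, the core bound by TEAD factors, searched on both strands (as CATTCC on the other), and the CArG box bound by serum response factor, in its strict form with 6 A or T bases between CC and GG. Forms of the CArG box with a changed base were not searched, so a window without a match may still hold them. Each is the 250 bases before the RefSeq start site (build GRCm38.p6), 5′ to 3′ in the direction of the gene, with matches in capitals.
Acta2 (chr19:34255374-34255623, minus strand): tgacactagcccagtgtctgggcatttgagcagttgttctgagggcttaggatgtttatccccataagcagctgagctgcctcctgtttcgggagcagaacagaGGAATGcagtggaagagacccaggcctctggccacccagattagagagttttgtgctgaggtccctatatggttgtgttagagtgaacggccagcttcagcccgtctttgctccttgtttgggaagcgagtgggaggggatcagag
Myl9 (chr2:156775214-156775463, plus strand): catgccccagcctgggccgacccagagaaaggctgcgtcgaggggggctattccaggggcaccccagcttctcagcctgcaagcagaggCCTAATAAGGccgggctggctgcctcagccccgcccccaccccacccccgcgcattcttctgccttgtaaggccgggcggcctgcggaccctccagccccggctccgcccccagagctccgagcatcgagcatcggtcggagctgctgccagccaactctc
Vcl (chr14:20929148-20929397, plus strand): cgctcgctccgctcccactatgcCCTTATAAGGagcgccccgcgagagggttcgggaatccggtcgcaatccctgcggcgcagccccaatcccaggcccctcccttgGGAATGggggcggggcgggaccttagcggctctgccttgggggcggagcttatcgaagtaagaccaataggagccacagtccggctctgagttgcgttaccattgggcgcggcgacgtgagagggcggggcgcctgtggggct
Cnn2 (chr10:79988350-79988599, plus strand): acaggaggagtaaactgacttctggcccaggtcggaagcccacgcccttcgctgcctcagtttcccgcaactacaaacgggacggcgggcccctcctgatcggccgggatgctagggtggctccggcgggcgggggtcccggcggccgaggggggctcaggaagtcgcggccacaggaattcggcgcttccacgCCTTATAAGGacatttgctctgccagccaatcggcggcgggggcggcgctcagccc
Thbs4 (chr13:92794819-92795068, minus strand): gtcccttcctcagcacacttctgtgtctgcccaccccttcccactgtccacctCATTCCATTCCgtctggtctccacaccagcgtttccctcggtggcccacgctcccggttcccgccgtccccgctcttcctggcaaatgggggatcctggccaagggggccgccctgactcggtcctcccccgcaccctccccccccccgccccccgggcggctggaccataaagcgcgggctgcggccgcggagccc
Cilp (chr9:65264930-65265179, plus strand): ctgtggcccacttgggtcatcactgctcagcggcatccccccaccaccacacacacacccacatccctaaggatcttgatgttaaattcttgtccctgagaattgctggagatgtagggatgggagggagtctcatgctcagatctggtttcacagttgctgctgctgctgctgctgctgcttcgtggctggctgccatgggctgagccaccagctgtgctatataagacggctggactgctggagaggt

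GGAATG was matched 146 bases before the start of Acta2, 143 before that of Vcl (vinculin, which ties actin to adhesions) and, in overlapping matches, 197 and 192 before that of Thbs4, and the CArG box 161 bases before Myl9, 227 before Vcl and 56 before Cnn2. The Cilp window matched neither. Of the 22 contractile genes 20 had windows, 24 in all, of which 9 (37.5%) held GGAATG and 5 (20.8%) the CArG box. Of all 32851 windows of that length 12.6% held GGAATG and 1.47% the CArG box. Among the rule genes 5 had windows, with GGAATG in those of Thbs4 and C1qtnf3 and the CArG box in none. Of the 10 genes lowest in the ENPP1CKO library, by the minimum counts given below, 7 had windows. GGAATG was in those of Acta2 and Tnn and the CArG box in none. Of the 10 highest genes 6 had windows, 8 in all, with GGAATG in that of Abca8a and the CArG box in none. Among contractile genes past 2-fold lower, Cnn1 and Tpm2 had windows that matched neither motif. Contractile genes that were not lower also had matches, GGAATG upstream of Cald1 and the CArG box upstream of Fhl2. Actg2, Tagln and Comp had no window in the table used here and were not searched. A match of letters is a description and was not tested as a binding site.

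**Figure D3:**
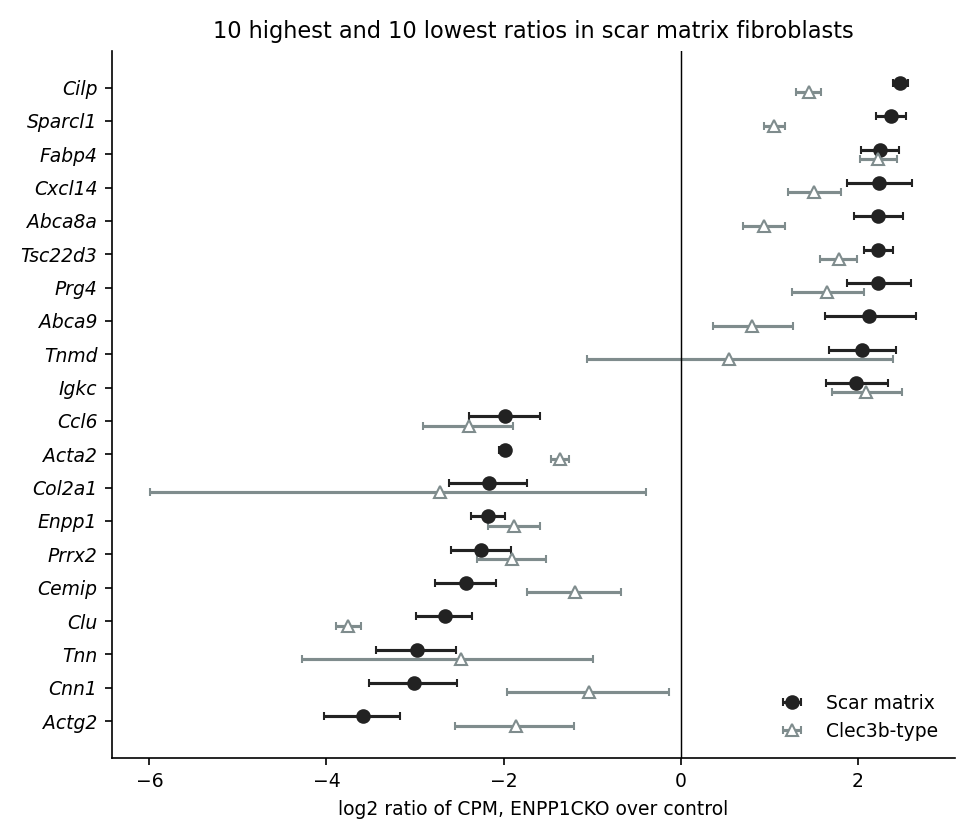
Log2 ratios of CPM, ENPP1CKO over control (horizontal axis), of the 10 genes with the highest and the 10 with the lowest ratio in scar matrix fibroblasts (black circles), with the ratios of the same genes in Clec3b-type fibroblasts (open triangles) and exact 95% counting intervals. Genes needed 200 counts in both libraries' members together and 20 in each. Values in scar matrix fibroblasts run from 2.48 for Cilp to -3.58 for Actg2, and the Clec3b-type ratio has the same sign for each of the 20 genes, with an interval that includes 0 for Tnmd.

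The 10 highest ratios, taken over genes that reached 200 counts in both libraries' members together and 20 in each, belonged to Cilp and 9 genes of varied function. Sparcl1, a secreted relative of SPARC that opposes adhesion, stood at 299 against 57.7 CPM (2.37, 2.21 to 2.54). Lubricin (Prg4), the boundary lubricant of joints and tendon, stood at 60.3 against 12.9 CPM (2.23), the chemokine Cxcl14 at 59.8 against 12.7 CPM (2.23), and tenomodulin at 50.3 against 12.2 CPM (2.04). Without members that held a Cilp count tenomodulin was no longer past 2-fold, at 0.68 on 20 and 33 counts, while Cxcl14 had 1.21 and Abca8a 1.44. The lipid transporters Abca8a and Abca9 stood at 103 against 22.0 CPM (2.23) and 28.5 against 6.53 CPM (2.13). These ratios were 1.06 for Sparcl1, 1.66 for Prg4 and 0.94 for Abca8a in Clec3b-type fibroblasts. Tsc22d3, which encodes the glucocorticoid-induced leucine zipper, stood at 285 against 60.8 CPM (2.23).

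The remaining pair, Fabp4 and Igkc, are known as products of other cell types. Fabp4, the fatty acid binding protein of capillary endothelium and fat, stood at 167 against 35.2 CPM, and at 231 and 74.2 CPM in macrophage barcodes. The immunoglobulin light chain Igkc stood at 55.0 against 13.9 CPM, and at 1272 and 15.9 CPM in macrophage barcodes. The 10 endothelial markers summed to 246 and 90.0 CPM in members, the 9 lymphocyte markers to 58.9 and 29.4 CPM, and the 9 cardiomyocyte markers to 46.1 and 14.9 CPM, all higher in the ENPP1CKO library. These sums hold Fabp4 and Igkc themselves. Of the 7 endothelial markers with enough counts 6 were higher, 5 past 2-fold (median 1.18), among them Cdh5 (4.92 against 2.23 CPM) and Egfl7 (12.7 against 5.33 CPM). Without Fabp4 the endothelial markers summed to 79.3 and 54.8 CPM, with Ly6c1 at 31.3 against 34.0 CPM, and without Igkc the lymphocyte markers summed to 3.84 and 15.5 CPM, higher in the control library. Macrophage markers went the other way, at 495 and 846 CPM over 12 genes. With the macrophage profile subtracted at the share of C1q that members carried, the log2 ratio was 2.26 for Fabp4 and 1.69 for Igkc. With the quality and doublet filter, which left 1557 and 792 members, Fabp4 had 600 and 52 counts in place of 1393 and 205 (log2 ratio 2.82), and Igkc had 2.12. Without members that held a Cilp count Fabp4 had 3.74.

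Outside the contractile genes and Enpp1, the 10 lowest ratios among genes with 200 counts together and 20 in each library held 6 genes of varied function. Tenascin N stood at 6.00 against 47.1 CPM (-2.97, -3.44 to -2.53), and Col2a1 at 7.08 against 31.8 CPM (-2.17), which without members that held a Cilp count was at -0.35 on 24 and 81 counts. Cemip, which breaks down hyaluronan, stood at 10.8 against 57.9 CPM (-2.42). The homeobox gene Prrx2 of mesenchyme stood at 11.5 against 54.8 CPM (-2.25). Clusterin (Clu), an extracellular chaperone, stood at 12.4 against 78.3 CPM (-2.66) and had a log2 ratio of -3.75 in Clec3b-type fibroblasts. Ccl6, a chemokine of macrophages, stood at 8.76 against 34.7 CPM in members and at 504 and 888 CPM in macrophage barcodes. With the macrophage profile subtracted at the share of C1q that members carried (0.825% and 1.26% of the macrophage level), the ratio of Ccl6 was -2.36. Without members that held a Cilp count the log2 ratios were -1.67 for Tnn, -1.34 for Cemip, -1.04 for Ccl6 and, on 7 and 178 counts, -3.27 for Prrx2.

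Collagen genes lay on both sides. The collagen list leaves out the rule gene Col11a1 and the cartilage collagens Col2a1 and Col9a1, all past 2-fold lower, which are described with the rule and the cartilage genes. Of the 25 collagen genes on it with enough counts 19 were higher and 6 lower in the ENPP1CKO library, 3 past 2-fold higher and none past 2-fold lower, with a median log2 ratio of 0.09. With the quality and doublet filter 10 of 25 were lower, and without members that held a Cilp count 9 of 24. The fibrillar collagens of stiff scar were among the lower ones, Col1a1 at 4859.9 against 7071 CPM (-0.54), Col1a2 at 7918 against 9296 CPM (-0.23) and Col5a1 at 439 against 597 CPM (-0.44), and Col3a1 was nearly level at 9700.2 against 9527 CPM (0.03). Higher were the chains of basement membrane and beaded filament collagen Col4a1 at 446 against 279.5 CPM (0.67), Col4a2 at 463 against 277 CPM (0.74), Col6a3 at 411 against 251 CPM (0.71) and Col15a1 at 556 against 253 CPM (1.14). Col22a1, a collagen of muscle and tendon junctions, had 159 counts in ENPP1CKO and 11 in control members (log2 ratio 3.33, 2.46 to 4.37). Not all fibrillar chains were lower, since Col5a3, a minor one, had a log2 ratio of 1.1.

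The enzymes and chaperones that process collagen were lower in 22 of 26 cases, 1 (P4ha2) past 2-fold, with a median of -0.19. The collagen chaperone Serpinh1 stood at 2321 against 3513 CPM (-0.60), the prolyl hydroxylase subunits P4ha2 and P4ha3 at 38.9 against 79.4 CPM (-1.03) and 58.4 against 108 CPM (-0.89), and the procollagen C-proteinase Bmp1 at 109.98 against 174 CPM (-0.66). The cross-linking enzyme lysyl oxidase (Lox) stood at 811 against 979.9 CPM (-0.27) and Loxl1 at 924 against 871 CPM (0.09). Chaperones and folding enzymes of the endoplasmic reticulum were lower in 18 of 24 cases with a median of -0.20 and none past 2-fold, or -0.11 without members that held a Cilp count.

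Proteoglycans were higher in 9 of 11 cases (median 0.25). The list leaves out the rule gene Fmod, which is described with the rule. Among the small leucine-rich ones Dcn stood at 9948 against 7192 CPM (0.47), Aspn at 5286 against 3898 CPM (0.44) and Ogn at 2237 against 1437 CPM (0.64). The exceptions were Prelp at 241 against 346 CPM (-0.52) and aggrecan at 30.2 against 96.9 CPM (-1.68). The number higher was 6 of 11 with thinned cells and 7 of 11 with the quality and doublet filter or as a mean over cells. With members led by Cilp left out, the median of the proteoglycans was 0.06.

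Cartilage and tendon genes split between the libraries, with 9 of 16 higher and 7 lower in ENPP1CKO members, 2 and 4 past 2-fold. The list leaves out the rule genes, of which Cilp and Thbs4 were past 2-fold higher and Col11a1 past 2-fold lower. Aggrecan, Col2a1, Col9a1 (2.76 against 8.42 CPM, log2 ratio -1.61) and chondroadherin (Chad, 4.68 against 12.4 CPM, log2 ratio -1.40), all genes of cartilage, were on the lower side. Lubricin and tenomodulin were on the higher side, with matrix Gla protein (Mgp), an inhibitor of calcification, at 14491 against 8133 CPM (0.83). Scx stood at 133 against 161 CPM (-0.28) and the cartilage regulator Sox9 at 172 against 161 CPM with an interval of -0.03 to 0.21.

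Matricellular and elastic fibre genes were lower in 21 of 30 cases (median -0.16, 3 past 2-fold higher and 2 lower), and in 16 of 30 (median -0.06) without members that held a Cilp count. Ccn5, a growth-restraining member of the CCN family, stood at 399 against 1106 CPM (-1.47), Tgfbi at 33.9 against 82.6 CPM (-1.28), Thbs1 at 637 against 1086 CPM (-0.77) and Thbs2 at 345 against 652 CPM (-0.92). Thbs4, a rule gene that this list leaves out, had the opposite direction to Thbs1 and Thbs2 of its family. Fibulin 7 (Fbln7) at 17.0 against 3.78 CPM (2.17), Svep1 at 75.9 against 34.4 CPM (1.14) and the microfibril protein Mfap5 at 4653 against 2322 CPM (1.00) were past 2-fold higher. Postn was close to level, at a log2 ratio of 0.14, and Cthrc1 lower at -0.48.

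**Figure D4:**
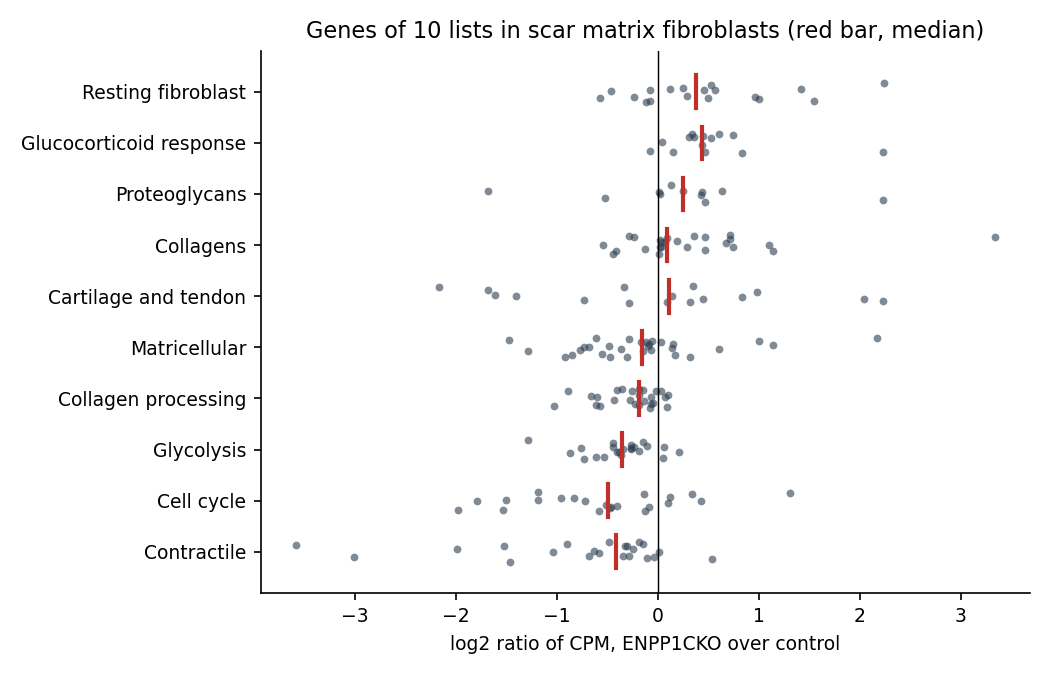
Log2 ratios of CPM, ENPP1CKO over control (horizontal axis), in scar matrix fibroblasts for the genes with at least 50 counts in 10 lists (points; vertical scatter within a list has no meaning) and the median of each list (red bars). Medians run from -0.49 for cell cycle genes and -0.41 for contractile genes to 0.44 for glucocorticoid response genes, and cartilage and tendon genes lie past 2-fold on both sides.

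Ligands, receptors and regulators of the TGF-β family were mixed, with 13 of 22 higher and 9 lower (median 0.11). Past 2-fold were 1 higher, Tgfbr1, and 1 lower, at a log2 ratio of -1.44. The ligand Tgfb1 stood at 119 against 66.5 CPM (0.84) and Tgfb2 at 53.9 against 96.9 CPM (-0.85). The receptors Tgfbr1 at 69.7 against 34.0 CPM (1.03) and Tgfbr2 at 82.0 against 56.9 CPM (0.53) were higher in the ENPP1CKO library. Smad7, which is induced by the pathway and restrains it, stood at 45.1 against 56.2 CPM (-0.32). Among secreted inhibitors of WNT signalling Sfrp1 stood at 440.04 against 987 CPM (-1.17), Sfrp2 at 2204 against 3798 CPM (-0.79) and Sfrp4 at 1.08 against 9.96 CPM (-3.21), all lower, in a list of 11 WNT genes with a median of 0.08.

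Insulin-like growth factor binding proteins gave some of the widest ratios among abundant genes. Igfbp7 stood at 1219 against 3676 CPM (-1.59, -1.63 to -1.56), and its log2 ratio in Clec3b-type fibroblasts was -1.91. Igfbp6 had the opposite direction at 386 against 99.8 CPM (1.95, 1.82 to 2.08), with 0.40 in Clec3b-type fibroblasts. Igfbp2 was higher at 18.5 against 5.67 CPM (1.70) and the ligand Igf1 at 395 against 256 CPM (0.62). Over the 23 growth factor genes 10 were higher and 13 lower, 3 and 3 past 2-fold, and without members that held a Cilp count 9 of 23 were lower (median 0.11).

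Genes of resting fibroblasts were higher in 12 of 18 cases, 4 past 2-fold (median 0.37). Besides Cxcl14 and Mfap5, the semaphorin Sema3c stood at 13.1 against 4.47 CPM (1.55) and Hsd11b1, which regenerates active glucocorticoid, at 20.6 against 7.73 CPM (1.42). Pi16 stood at 445 against 228 CPM (0.96). In cells thinned to 2000 counts the list median was 0.09.

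Glucocorticoid-responsive genes were higher in 13 of 14 cases (median 0.44), 1 past 2-fold, which was Tsc22d3. The median was 0.27 without Cilp-led members and 0.29 in thinned cells. The metallothioneins Mt1 and Mt2, which bind zinc and copper, stood at 1401 against 1092 CPM (0.36) and 556 against 332 CPM (0.74), and glutamine synthetase (Glul) at 44.6 against 25.1 CPM (0.83). Tsc22d3 was also higher in ENPP1CKO macrophage barcodes, at 278 against 132 CPM.

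The inflammatory list was lower in 19 of 29 cases (median -0.45), 4 past 2-fold lower and 1 higher. Without members that held a Cilp count 16 of 29 were lower (median -0.24), and the median was -0.28 in thinned cells. Markers of immune cells were lower beside it, macrophage markers in 10 of 10 cases (median -0.57) and, among neutrophil markers, S100a8 at 8 against 100 counts and S100a9 at 3 against 38. Their part in the list was not tested. Saa3 stood at 1.68 against 51.4 CPM (-4.94, -5.82 to -4.17) and at 21.5 and 814 CPM in macrophage barcodes. The monocyte chemokines Ccl2 at 21.7 against 56.7 CPM (-1.38) and Ccl7 at 12.2 against 46.9 CPM (-1.94) were lower in members and higher in macrophage barcodes, where Ccl2 stood at 361 and 254 CPM. Cxcl1 stood at 266 against 469.5 CPM (-0.82) and Il6 at 49.8 against 60.0 CPM (-0.27). Of 22 genes of the stress of cell dissociation 8 had intervals above 0 and 9 below 0 (median -0.06). Without members that held a Cilp count 18 of 22 were lower (median -0.23). The 2 past 2-fold were Jund at 222 against 756 CPM (-1.76) and Klf2 at 410.4 against 1123 CPM (-1.45), which were also lower in ENPP1CKO macrophage barcodes, Jund at 207 and 587 CPM and Klf2 at 57.1 and 151.

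Cell cycle genes were lower in 17 of 22 cases (median -0.49), 6 past 2-fold. With thinned cells 13 of 22 were lower (median -0.32) and with the quality and doublet filter 14 (median -0.38). The 6 included the mitotic genes Ube2c at 10.8 against 37.3 CPM (-1.79), Top2a at 8.52 against 24.6 CPM (-1.53) and Ccnb2 at 10.2 against 28.9 CPM (-1.50), whereas the cyclin Ccnd1 was past 2-fold higher at 21.7 against 8.76 CPM (1.31). The replication gene Mcm6 stood at 17.5 against 18.6 CPM (-0.08). Glycolytic and hypoxia genes were lower in 19 of 22 cases (median -0.35), with the lactate exporter Slc16a3 at 24.5 against 59.8 CPM (-1.29) and Gapdh at 300.4 against 508 CPM (-0.76). In Clec3b-type fibroblasts these lists had medians of -0.77 and -0.74.

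Proteases of the matrix and their inhibitors were lower in 11 of 17 cases (median -0.27), and in 9 of 17 (median -0.07) without members that held a Cilp count. The membrane protease Mmp14, which activates the gelatinase Mmp2, stood at 354 against 511 CPM (-0.53) and Mmp2 itself at 766 against 583 CPM (0.39), so the pair lay on opposite sides. Adam12, a metalloprotease of activated stroma, stood at 8.40 against 27.8 CPM (-1.73) and the serine protease Htra1 at 76.4 against 157 CPM (-1.04), both past 2-fold lower. Among the inhibitors Timp1 stood at 1182 against 989 CPM (0.26) and Timp2 at 378 against 690.1 CPM (-0.87), and Timp2 was also lower in ENPP1CKO macrophage barcodes, at 142 and 455 CPM. Interferon-induced genes outside the rule went both ways, with 8 of 19 higher and 11 lower, 6 and 5 of them with intervals on that side of 0, and the chemokine Cxcl10 alone past 2-fold (4.56 against 11.7 CPM, log2 ratio -1.36).

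The p53 and apoptosis genes were divided, 13 higher and 14 lower of 27 with 1 past 2-fold. The death receptor Fas stood at 60.8 against 97.1 CPM (-0.67), the cell cycle inhibitor Cdkn1a at 297 against 236 CPM (0.34) and Mdm2 at 27.6 against 27.7 CPM. Of 18 purine and pyrimidine genes 10 were lower and Enpp1 alone was past 2-fold. The pyrimidine synthesis genes Umps at 8.64 against 11.3 CPM, Cad at 6.48 against 6.01 CPM and Dhodh at 6.96 against 8.07 CPM all had intervals that included 0. Adenosine deaminase (Ada) stood at 17.6 against 30.8 CPM (-0.80) and the pyrophosphate exporter Ank at 29.9 against 19.4 CPM (0.62).

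Because the members of the libraries were led by different rule genes, levels were set side by side among members with the same leading gene. Acta2 varied widely among these sets within a library, from 138 CPM in Cilp-led to 1703 CPM in Col11a1-led ENPP1CKO members, and from 198 to 3342 CPM in control members. The log2 ratio of Acta2 was negative in each of the 7 sets, ties included. It was -0.42 (-0.57 to -0.27) among Comp-led, -0.52 (-1.0 to -0.003) among Cilp-led and -0.63 among Fmod-led members, -0.97 (-1.09 to -0.86) among Col11a1-led and -1.90 among Thbs4-led members. Among C1qtnf3-led members Acta2 stood at 244 and 1898 CPM, a log2 ratio of -2.96 (-3.13 to -2.79). With Cilp-led members left out the ratio over all others was -1.50, and over the 269 and 551 members without a Cilp count it was -1.01, beside -1.99 over all members. These sets were built from counts of the rule genes, and a shared direction among them is no independent support. Other contractile genes were of either sign. Among Cilp-led members, of whom the control library had 37, the log2 ratio was 0.22 for Tagln, 0.40 for Cnn2, 0.87 (-0.08 to 2.01) for Myl9 and 0.60 (0.08 to 1.18) for Tpm1, which was also 0.20 (0.01 to 0.39) among Comp-led members. Among Fmod-led members it was 0.12 for Myl9 and 2.01 for Actg2 on 13 and 2 counts, and among ties 1.46 for Cnn1 on 9 and 2 counts.

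Igfbp7 and Enpp1 were lower in the ENPP1CKO library in each of the 7 sets. The log2 ratio of Igfbp7 ran from -2.26 among Cilp-led to -1.10 among C1qtnf3-led members, and that of Enpp1 from -3.40 among Col11a1-led members, on 7 and 175 counts, to -1.55 among Comp-led members. Tsc22d3 was higher in the ENPP1CKO library in each set, with log2 ratios from 1.38 (Fmod-led) to 2.76 (Thbs4-led). Cilp itself was higher in each set led by another gene, by log2 0.82 among Fmod-led to 2.49 among C1qtnf3-led members. Col1a1 had log2 ratios between -0.67 among C1qtnf3-led and -0.16 among Comp-led members in 6 sets and of 0.21 among Cilp-led members. Postn, which marks the activated state, stayed within -0.12 and 0.22 in all 7. Aggrecan had -0.19 (-0.62 to 0.23) among Col11a1-led and -0.28 (-0.77 to 0.20) among Comp-led members, both intervals including 0. It had -1.25 (-1.63 to -0.89) among C1qtnf3-led members and, on 20 counts or fewer in each library, -2.46 (-4.25 to -0.96) among Fmod-led, -1.82 (-3.51 to -0.16) among Thbs4-led and -1.03 among tied members, beside -1.68 over all members. Among Cilp-led members aggrecan had 18 counts in the ENPP1CKO library and no count in the control library, which had 37 such members.

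**Figure D5:**
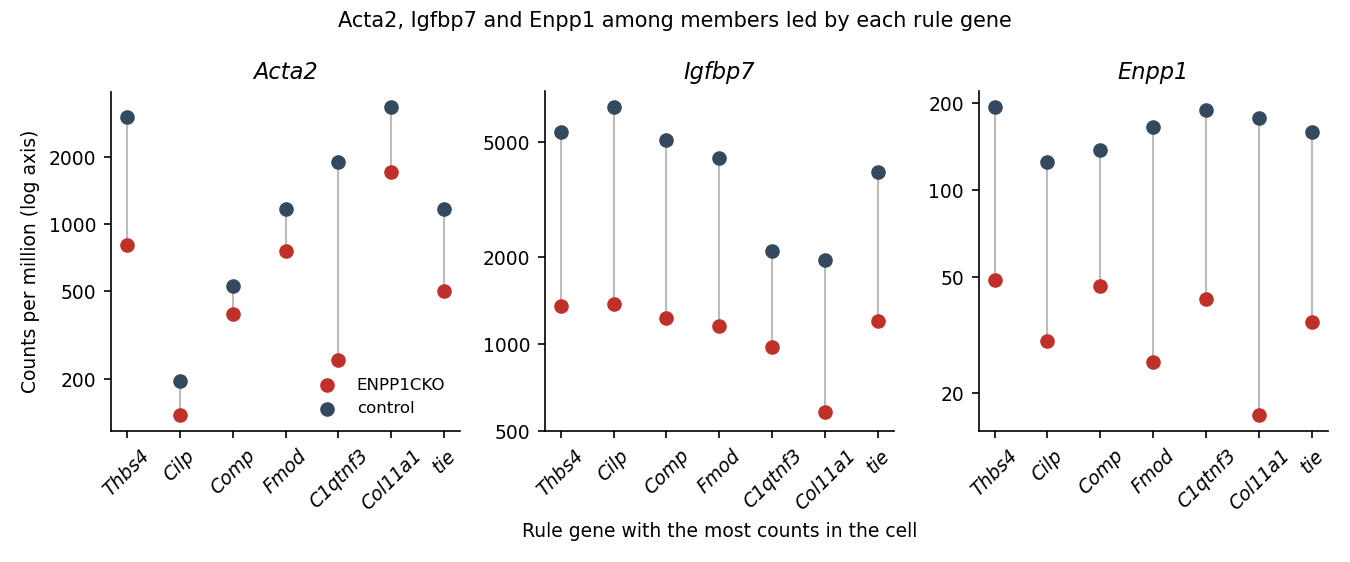
Levels (CPM, log axes) of Acta2, Igfbp7 and Enpp1 among scar matrix fibroblasts grouped by the rule gene with the most counts, in the ENPP1CKO (red) and control (dark blue) libraries; grey lines join the libraries and no intervals are drawn. The control point is the higher in each set, and the gap in Acta2 runs from a log2 ratio of -0.42 in Comp-led to -2.96 in C1qtnf3-led members.

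Levels of the rule genes were also compared over single members. The members were chosen on the sum of these genes, which by itself shapes the correlations among them. Correlations of log-scaled counts per 10000 are given as a description over the 1694 and 948 members of each library, and cells of a library share its depth and preparation. Comp and Cilp had r of -0.15 in ENPP1CKO and 0.16 in control members, of opposite sign. Thbs4 went with Cilp (Pearson's r 0.33 in ENPP1CKO members, 0.38 in control members) and Comp with Fmod (0.28 and 0.25). Col11a1 went with aggrecan (0.26 and 0.43), C1qtnf3 (0.17 and 0.36) and Acta2 (0.18 and 0.28). Cilp had negative correlations with Acta2 (-0.31 and -0.25) and Col11a1 (-0.14 and -0.25) and positive ones with Sparcl1 (0.28 and 0.25), Igfbp6 (0.28 and 0.21) and Igfbp7 (0.27 and 0.30). Comp and Acta2 had a correlation near 0 in the ENPP1CKO library and a negative one in the control library (-0.43). Acta2 and Tagln went together (0.48 and 0.62), and both also went with the total counts of the cell (Acta2 0.27 and 0.40).

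Over the same cells, the 10 of 6340 well-counted genes whose levels were most like the summed rule genes in both libraries were taken as a description, since the cells were chosen by that sum. Abi3bp, a secreted matrix protein, had r of 0.36 and 0.36, Ogn 0.32 and 0.29, Pamr1 0.25 and 0.22, Col5a2 0.21 and 0.25, and Aspn 0.34 and 0.20. Fibin, the gelatinase Mmp2, the noncoding RNA Malat1, Col12a1 and 1500015O10Rik followed. Of these Fibin stood at 768 against 296 CPM (1.37) and Abi3bp at 737 against 319 CPM (1.21), both past 2-fold higher in the ENPP1CKO library.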

How the data were processed

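The 10x-style tables hold the UMI counts that the authors deposited per gene and barcode, 31053 genes in 12807 barcodes, with no scaling. The submitters' processing notes name STAR 2.5.3a, Cell Ranger and the builds mm10 and rn6 for the series as a whole, and their cell filters were not given in the sources used here. Symbols were matched for 30934 of 31053 identifiers. Counts were summed per library and class and scaled to 1000000 (CPM). Ratios carry exact conditional binomial 95% intervals, levels exact Poisson and shares Clopper-Pearson intervals, all for counting error only. With 1 library per genotype, genotype and library cannot be told apart and no test was run. No doublet caller and no clustering were used. Genes needed 50 counts in both libraries together. For shares of cells, each cell was thinned to 2000 counts. A total of 3 counts, set as a floor, was 0.360 CPM in the ENPP1CKO and 0.515 CPM in the control members. The exact Poisson interval of a count of 0 reaches somewhat higher.

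Named genes were the genes of the rule, Enpp1, Acta2, Tagln and Cnn2, the 10 highest and the 10 lowest ratios among genes with 200 counts together and 20 in each library, the 12 highest and the 8 lowest against Clec3b-type fibroblasts by the smaller of both libraries' ratios, up to 3 genes of each list by size of ratio with the members needed to describe it, and the 10 genes most like the summed rule genes. The members, the lists and these rules were chosen with earlier results of these data known. Some genes these rules select are not reported here. The bulk samples of the series (35) were not used. Upstream windows of 250 bases come from RefSeq promoters on GRCm38.p6. Alternatives were thinning, another scaling (TMM), other minimum counts, a mean over cells, subtraction of macrophage RNA, a filter on quality and marker genes of possible doublets, a margin of 3 counts, a higher collagen share, and each rule gene left out. Scripts ran in Python 3.11.15 with numpy 2.4.6, scipy 1.17.1, pandas 2.3.3 and matplotlib 3.10.9, and TMM in R 4.3.3 with edgeR 4.0.16, after tests on simulated data.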

Additional observations from a re-analysis of the deposited data

Results flagged for a closer look

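A few genes had log2 ratios of ENPP1CKO over control that pointed one way in scar matrix fibroblasts and the other way in Clec3b-type fibroblasts of the same libraries. With 1 library per genotype the difference was not tested. Hsd11b1 had 1.42 in scar matrix and -0.56 in Clec3b-type fibroblasts, and Col5a3, a minor fibrillar collagen chain, 1.10 and -0.28. Sfrp2 had -0.79 and 0.04, Adamtsl2, one of the opposing genes of the rule, -0.55 and 0.18, and Col1a2 -0.23 and 0.15. C1qtnf3, a rule gene, had -0.23 and 0.28, and Malat1 0.15 and -0.10. C1qtnf3, Adamtsl2 and Col1a2 were among the genes that chose the cells.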

How the results depend on the processing

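No paired analysis was possible because each genotype had 1 library, and no library could be left out for the same reason. Of 532 values recomputed, 432 stayed within a set limit, 100 did not, and none of the called ratios changed sign. The limit was the counting interval for a ratio or a share, and within 1.5 times for a count of genes. For a list median it was the median reach of its genes' counting intervals to either side of their midpoints. The share of members among barcodes past the first 3 criteria (46.89% and 51.38%) was 39.61% and 44.39% with a margin of 3 counts and 49.04% in the control library with thinned cells. In the ENPP1CKO library it was 42.13% without Comp, 37.09% without Cilp, 45.20% without Fmod and 44.70% without C1qtnf3 in the rule, and in the control library 38.86% without Comp, 48.13% without Col11a1 and 47.86% without C1qtnf3. The counts of genes past 2-fold higher and lower (206 and 208) were 137 and 111 with thinned cells (of 7300 genes), 312 and 331 at 20 counts, 67 and 74 at 200 counts and 369 and 446 with no minimum. Added after seeing the data, leaving out Cilp-led members gave 110 higher and 171 lower, and leaving out every member with a Cilp count gave 44 higher and 158 lower. Against Clec3b-type fibroblasts 70 and 132 genes were past 2-fold in both libraries at 200 counts (137 and 253). Thinning gave log2 ratios of -1.91 for Enpp1 and 2.38 for Cilp. Acta2 had -2.08 with a margin of 3 counts, -1.50 without Cilp-led members and -1.01 without members with a Cilp count, where the contractile median was -0.28. The cause of these shifts was not tested, beyond the fewer counts or cells each setting leaves. These settings were run for 27 genes (the 6 rule genes, Enpp1, Acta2, Tagln, Cnn2 and the 10 highest and lowest), not for the genes named from lists. The 22 of them past 2-fold kept their sign and a ratio of at least 2-fold under the 7 planned settings. Most were picked for the widest ratios and the settings reuse much the same cells, so this says little about other genes. Without Cilp-led members Col11a1 fell short of 2-fold, as did Tnmd and Col2a1 too without members with a Cilp count. Of the lists, the pericyte and smooth muscle markers (median -0.47) had 0.28 with thinned cells and 0.26 without members with a Cilp count, and the small medians of the TGF-β, WNT and cartilage and tendon lists were each below 0 under 1 setting. The growth factor median (-0.12) was 0.08 without Cilp-led members and 0.11 without members with a Cilp count, and the small medians of the fibroblast, scar fibroblast, purine and p53 lists also changed sign. The collagen median (0.09) was 0.21 with thinned cells and 0.18 with the quality filter, and the matricellular median (-0.16) was -0.06 without members with a Cilp count. Depth limits shares of cells, since the median member held 4620.5 and 5774 counts.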
